A study of Rattus norvegicus and Mus musculus with 74 samples.

Results

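Intergenic H3K9me3 regions of the rat cortex were 6554 of the 72824 regions in the rat table, or 9.0%. A region was a member if the table listed no gene, no promoter and no CpG island for it, if an H3K9me3 interval had been called there in at least 2 of the 3 control libraries, and if no interval of H3K4me3, H3K9Ac or H3K27me3 had been called there in any of the 9 control libraries of those marks. Members made up 16.8% of the 38949 regions with no listed gene. Members were thus chosen by the annotation and by the interval calls of all 4 marks in the control libraries. The rule read no call or level from the libraries of VPA-exposed rats. The merged regions themselves were not defined from controls alone. Of those with no listed gene, promoter or CpG island, 17712 had no control interval of any mark.

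Trimethylation of lysine 9 on histone H3 is the mark of constitutive heterochromatin. It is laid down by SUV39H and SETDB1 methyltransferases, is bound by HP1 proteins, and keeps satellite repeats, transposable elements and clusters of tissue-restricted genes silent. H3K4me3 marks active promoters, H3K9Ac marks active promoters and enhancers, and H3K27me3 is laid down by Polycomb complexes at repressed genes.

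Chromatin was from brain cortex of Sprague-Dawley rats, and 4 histone marks were profiled by ChIP-seq. The groups were rats that had a prenatal injection of VPA (valproate) and were given TAK-418, rats with the same prenatal injection given vehicle, and healthy rats given vehicle (control). TAK-418 is an inhibitor of LSD1, the demethylase that removes methyl groups from H3K4. Each group had 3 libraries per mark, 36 in all. Whether these are separate animals is not in the labels, and the p-values rest on the spread between libraries, which may be technical. Whole cortex holds many cell types, so fewer cells carrying a mark and less of the mark per cell cannot be told apart. At the cortex markers, control H3K9Ac was high at Snap25, a synaptic gene of neurons (12.7, percentile 94.9 of all listed genes), and at Slc1a2, the astrocyte glutamate transporter (7.24, percentile 66.4), but stood only at percentile 27.6 at Syt1, another synaptic gene. It was lower at genes of other tissues, with percentile 23.5 at Alb, 21.7 at Ins2 and 14.1 at Umod. Levels are the authors' mean signal over a region. No read counts were used here and the scaling between libraries is not stated in the sources used here, so the depth is unknown and a difference in level between libraries can include a difference in scale.

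The members were short blocks spread over the genome. Their median length was 5799 bp, with a middle range of 3799 to 8799 bp and extremes of 399 and 87799 bp, and together they covered 47.3 Mb. The other regions with no listed gene were shorter, with a median of 3799 bp. The 3342 regions that listed a gene and met the same criteria on the marks were longer, with a median of 7399 bp. The 1106 regions called for both H3K9me3 and H3K4me3 in at least 2 control libraries each had a median of 34699 bp. Only 173 members were under 1 kb and 228 were over 20 kb.

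The H3K9me3 level of the members was above that of the typical region in every rat library, which the choice of members fixes for the controls. The member median was 5.88, 3.63 and 3.45 in the 3 libraries of VPA rats given TAK-418, 4.23, 5.24 and 3.89 in those of VPA rats given vehicle, and 2.30, 2.92 and 2.96 in those of controls. The first TAK-418 library was the highest of the 9 and the other two TAK-418 libraries lay below every vehicle library, so the TAK-418 and vehicle groups overlapped. Both VPA groups lay above all 3 controls, whose calls the rule had read. The medians of all regions did so too. These were 3.25, 2.40 and 2.12 with TAK-418, 2.36, 2.88 and 2.25 with vehicle, and 1.72, 1.81 and 1.81 in controls. Group means of the member medians were 4.32 ± 1.35 with TAK-418, 4.45 ± 0.701 with vehicle and 2.73 ± 0.371 in controls (SD, n = 3 each). The member median was then divided by the median of all regions of the same library. This ratio was 1.65 ± 0.150 with TAK-418, 1.78 ± 0.0467 with vehicle and 1.53 ± 0.168 in controls. Levels have a floor, given below, so the division need not remove all of a difference in scale. By this ratio the TAK-418 libraries overlapped both other groups. The 3 vehicle libraries, from 1.73 to 1.82, lay above the 3 controls, from 1.34 to 1.64. After quantile normalization the median log2 difference over members, vehicle minus control, was 0.03. The mean percentile of the members among all regions was 86.0 ± 1.04, 86.6 ± 0.628 and 85.9 ± 2.54 in TAK-418, vehicle and control libraries, and members held 15.7%, 16.7% and 14.5% of the H3K9me3 signal summed over regions in those groups.

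Interval calls at the members did not follow the order of the levels. An H3K9me3 interval was called at 95.9%, 82.4% and 85.2% of members in the TAK-418 libraries, at 95.2%, 96.6% and 92.5% in the vehicle libraries, and at 51.7%, 95.1% and 94.4% in the control libraries. The second and the third TAK-418 library had fewer calls than controls 2 and 3, though their levels were higher, and the first TAK-418 library lay within the range of the vehicle group. Over all regions the called share was 41.0%, 24.1% and 26.4% with TAK-418, against 34.1%, 39.2% and 32.1% with vehicle. Control library 1 stood apart, with intervals at 10.6% of all regions, against 21.8% and 21.3% in the other two controls. Accordingly, 3167 members (48.3%) owed their place to controls 2 and 3 alone, 2703 (41.2%) were called in all 3 controls, and 365 and 319 were called in control 1 together with control 2 or with control 3.

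**Figure D1:**
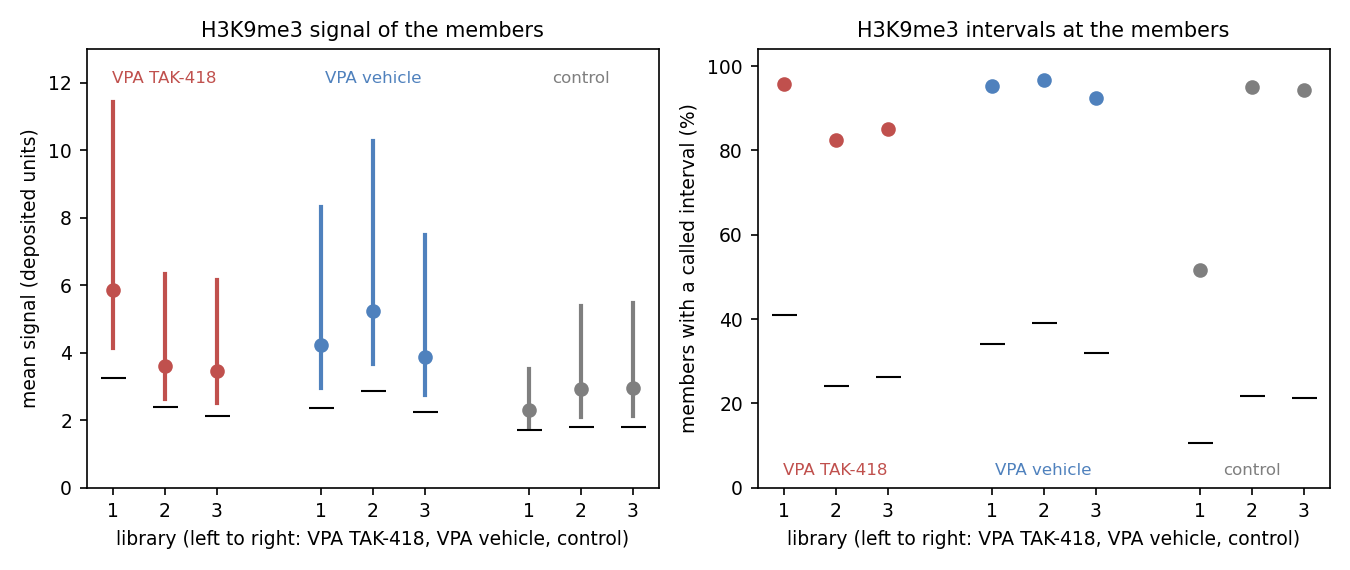
H3K9me3 at the members in each of the 9 rat libraries: left, the median mean signal (points) with the range from the tenth to the ninetieth percentile of members (vertical lines); right, the percentage of members with a called interval. Short black bars give the median and the called share of all 72824 regions. The TAK-418 libraries lie at 5.88, 3.63 and 3.45 and overlap the vehicle libraries at 4.23, 5.24 and 3.89. Both VPA groups lie above the controls, for members and for the medians of all regions.

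Most members were called for H3K9me3 again in the VPA libraries, which the rule did not use. Of the 6554 members, 4724 (72.1%) had an interval in all 6 VPA libraries, 972 in 5 of them, and 22 in none. Over all regions, 15.4% had an interval in all 6, 6.26% in 5 and 43.7% in none. By group, 4890 members (74.6%) were called in all 3 TAK-418 libraries and 5792 (88.4%) in all 3 vehicle libraries, while 156 were called in no TAK-418 library and 40 in no vehicle library. The shares of all regions called in all 3 libraries were 17.2% with TAK-418 and 23.1% with vehicle, and the shares called in none were 54.1% and 51.1%. Members called in all 6 were longer, with a median of 6799 bp, than the 22 called in none, with a median of 1999 bp. The regions are merged ones, and intervals of the VPA libraries can have set their lengths. Length and calls are therefore not independent, here or in the cut by length that follows. When the members were cut by length into 4 equal groups, 51.0%, 67.3%, 79.3% and 90.7%, from short to long, were called in all 6. When they were cut by control level, from low to high, the shares were 60.2%, 69.4%, 75.6% and 83.1%.

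The rule asks for 2 control libraries, so the regions just inside and just outside it were set side by side, as a description. The 3851 members called in 2 controls had a median H3K9me3 level of 3.99 with TAK-418, 4.14 with vehicle and 2.61 in controls. The 4986 regions called in 1 control, which met every other criterion, had 3.41 with TAK-418, 3.40 with vehicle and 2.25 in controls. Intervals in all 6 VPA libraries were present at 57.0% of the members called in 2 controls, at 93.5% of those called in 3, and at 17.5% of the regions called in 1.

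TAK-418 was compared with vehicle in the VPA rats, the comparison that owes nothing to the control libraries. No member passed the test in H3K9me3: of 6554 members tested, 0 were called higher and 0 lower by limma at a Benjamini-Hochberg adjusted p of 0.05, against 0.0344% and 0.0206% of all 72674 regions tested. The smallest adjusted p among members was 0.164, and 17 members (0.259%) had an unadjusted p under 0.05, against 2.03% of all regions. The median log2 difference, TAK-418 minus vehicle on the log2(signal + 1) scale, was -0.06 over members and 0.02 over all regions, and 29.1% of members and 55.5% of all regions had a positive difference. Single libraries set the sign of the member median: it was 0.03 without TAK-418 library 2, 0.05 without TAK-418 library 3, 0.04 without vehicle library 2 and -0.27 without TAK-418 library 1, and over all regions it ran from -0.09 to 0.10 when 1 library was left out. The 3 TAK-418 libraries lay above the 3 vehicle libraries at 3 members and below them at 33 members (background 1.97% and 0.894% of all regions). The count of calls also moved: without TAK-418 library 1, 15 members (0.229%) were called lower and 0 higher, against 0.435% and 0.0606% of all regions. The H3K9me3 signal summed over all rat regions was 223372 ± 54422 with TAK-418 and 223354 ± 29430.7 with vehicle (SD, n = 3 each), with an exact two-sided permutation p of 1, where 0.1 is the smallest that 3 against 3 libraries can give.

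The members with the smallest p show how far single regions moved. A member of 799 bp on chromosome 5 (36981800 to 36982599, rn5) had an H3K9me3 level of 3.79, 2.24 and 1.25 with TAK-418, 5.57, 6.88 and 4.35 with vehicle, and 3.44, 4.73 and 4.46 in controls. All 3 TAK-418 libraries lay below all 3 vehicle libraries, with a log2 difference of -1.0 (SE 0.264, limma adjusted p = 0.164). A member of 399 bp on chromosome 16 (30075200 to 30075599) had 8.15, 4.08 and 1.00 with TAK-418 and 8.62, 9.82 and 7.58 with vehicle, with a log2 difference of -1.09 (SE 0.312, limma adjusted p = 0.302). Here the groups overlapped. Both members had no H3K9me3 interval in any TAK-418 library. Both were called without TAK-418 library 1, with log2 differences of -1.27 (limma adjusted p = 5.66e-06) on chromosome 5 and -1.59 (limma adjusted p = 1.54e-08) on chromosome 16. With any 1 library left out, the differences ran from -1.27 to -0.73 and from -1.59 to -0.50, and the adjusted p over all alternatives reached 1.0. In the other direction, a member of 3399 bp on chromosome 3 (247000 to 250399) lay 5.80 kb from a region that lists Nxph2. Such distances are to the nearest other region that lists a gene, not to the gene itself. This member had 6.92, 4.08 and 4.00 with TAK-418 and 3.18, 4.07 and 2.82 with vehicle. Its groups overlapped (log2 difference 0.44, SE 0.275, limma adjusted p = 1.0; from 0.22 to 0.55 with 1 library left out).

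**Figure D2:**
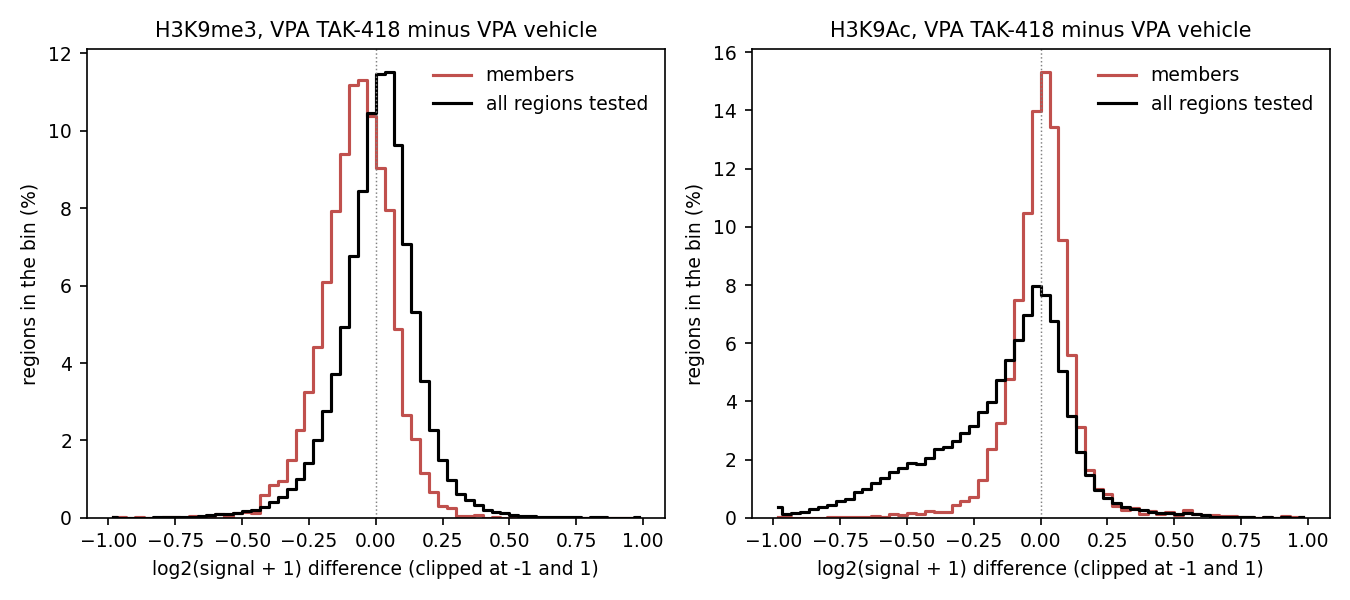
Distribution of the log2(signal + 1) difference, VPA TAK-418 minus VPA vehicle (x axis), for H3K9me3 (left) and H3K9Ac (right), as the percentage of regions per bin (y axis), over members (red) and all regions tested (black). The H3K9me3 median is -0.06 for members and 0.02 for all regions, and the H3K9Ac median is 0.01 for members and -0.09 for all regions. With 1 library left out, the member medians run from -0.27 to 0.05 for H3K9me3 and from -0.02 to 0.03 for H3K9Ac.

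The 3 other marks were near the lowest level the tables hold at the members, in the VPA rats as in the controls. A region's level in the tables was 0 or at least 1. The member median of H3K27me3 was 1.30 ± 0.154 with TAK-418, 1.23 ± 0.0824 with vehicle and 1.24 ± 0.0990 in controls (SD, n = 3 each). For H3K4me3 it was 1.02 ± 0.0263, 1.04 ± 0.0556 and 1.03 ± 0.0409, and for H3K9Ac 1.18 ± 0.0743, 1.15 ± 0.0950 and 1.07 ± 0.0147, in the same order of groups. An interval of H3K27me3 was called at 119 members (1.82%) in at least 1 of the 6 VPA libraries, of H3K9Ac at 36 (0.549%) and of H3K4me3 at 13 (0.198%), and 160 members (2.44%) had an interval of any of the 3 marks. Over all regions these shares were 29.2% for H3K27me3, 29.8% for H3K9Ac, 21.1% for H3K4me3 and 49.3% for any of the 3, and the rule had left out regions with such intervals in controls. For H3K27me3, 102 of these calls came in TAK-418 library 1, against 14 and 13 in the other TAK-418 libraries and 19, 40 and 6 in the vehicle libraries.

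**Figure D3:**
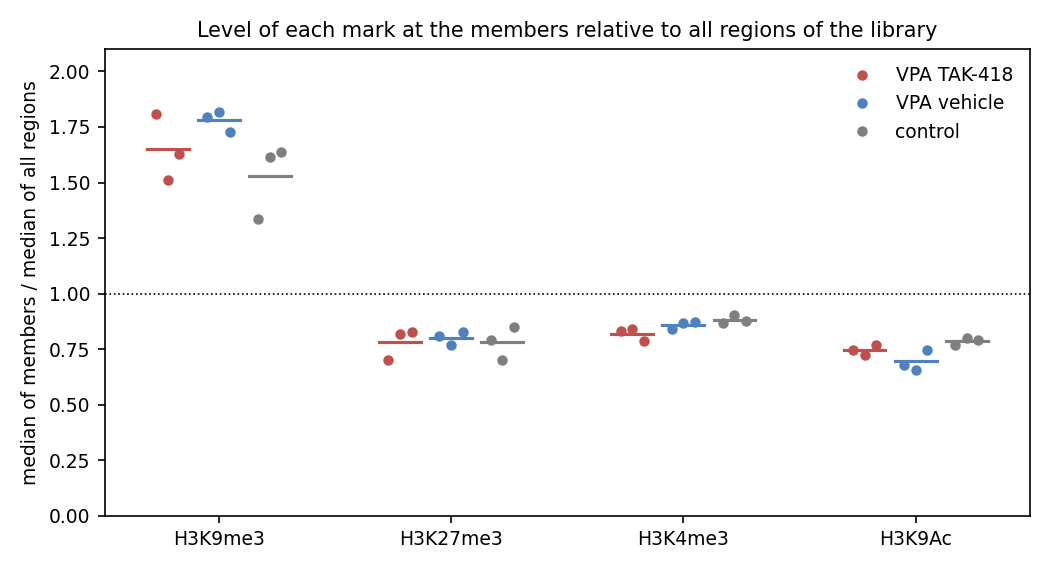
Median level of the members divided by the median of all regions in the same library (y axis), for each mark; points are libraries and horizontal lines are means of 3 libraries. H3K9me3 lies at 1.65 with TAK-418, 1.78 with vehicle and 1.53 in controls, and the other 3 marks lie below 1 in all libraries.

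Few members carried a second mark in several VPA libraries. For H3K27me3, a member of 14199 bp on chromosome 12 (16916000 to 16930199) was called in 2 TAK-418 and 3 vehicle libraries, with levels of 5.59, 2.94 and 2.65 with TAK-418, 2.99, 3.57 and 2.84 with vehicle and 2.69, 2.87 and 2.28 in controls. Its H3K9me3 level was 9.02, 5.30 and 5.42 with TAK-418, 6.35, 8.30 and 6.21 with vehicle and 2.77, 3.72 and 4.11 in controls. A member of 19599 bp on chromosome 11 (78441800 to 78461399), 12.4 kb from a region that lists Mb21d2, was called for H3K27me3 in 3 TAK-418 and 2 vehicle libraries. For H3K9Ac, a member of 12599 bp on chromosome 1 (127458000 to 127470599) had 4.87, 4.80 and 3.04 with TAK-418, 5.36, 5.23 and 3.35 with vehicle and 2.62, 2.31 and 2.67 in controls. It had an H3K9Ac interval in 3 TAK-418 and 2 vehicle libraries, but no H3K9me3 interval in any VPA library. A member of 19199 bp on chromosome 9 (37926800 to 37945999) lay 28.8 kb from a region that lists Bend6. It had H3K9Ac levels of 3.52, 3.48 and 2.85 with TAK-418, 5.09, 5.41 and 2.78 with vehicle and 2.36, 2.42 and 2.21 in controls. Its TAK-418 and vehicle libraries overlapped. For H3K4me3, a member of 11399 bp on chromosome 3 (152430200 to 152441599) was called in 2 TAK-418 and 3 vehicle libraries, with levels of 2.64, 2.54 and 3.00 with TAK-418 and 3.67, 2.96 and 2.92 with vehicle.

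In H3K9Ac, 3 of the 5686 members that passed the filter on low signal were called between TAK-418 and vehicle, 2 higher and 1 lower (limma, background 0.00776% and 0.0497% of 64401 regions). The 3 TAK-418 libraries lay above the 3 vehicle libraries at 275 members and below them at 152 (background 2.56% and 6.87%). The median log2 difference was 0.01 over the members tested and -0.09 over all regions tested. With 1 library left out it ran from -0.02 to 0.03 over members and from -0.17 to -0.02 over all regions. A member of 1199 bp on chromosome 13 (38806600 to 38807799) had H3K9Ac levels of 4.87, 2.97 and 3.00 with TAK-418, 1.00, 1.93 and 1.33 with vehicle and 2.75, 3.38 and 2.00 in controls. It was higher with TAK-418 in every library, by a log2 difference of 0.92 (SE 0.208, limma adjusted p = 0.0295). A member of 1799 bp on chromosome 17 (59152200 to 59153999) had 1.52, 2.33 and 2.41 with TAK-418, against 1.00 in each vehicle library (log2 difference 0.61, SE 0.140, limma adjusted p = 0.0321). A member of 1799 bp on chromosome 7 (19682400 to 19684199) lay 36.6 kb from a region that lists the vomeronasal receptor gene Vom2r56. It had 1.00, 1.17 and 1.00 with TAK-418 and 2.21, 2.00 and 2.67 with vehicle, and was lower with TAK-418 (log2 difference -0.68, SE 0.151, limma adjusted p = 0.0265). None of these 3 had an H3K9Ac interval in any library, and all 3 calls were lost after quantile normalization, with adjusted p of 0.187, 0.239 and 0.243, and with no filter on low signal, at 0.284, 0.281 and 0.171. After median centring 22 members were called, 20 higher and 2 lower (0.352% and 0.0352%), against 115 higher and 1029 lower over all regions (0.179% and 1.6%). Single libraries moved the count as well. Without TAK-418 library 1, 0 members were called, against 0 higher and 0.00624% lower of all regions. Without vehicle library 1, 0 members were called, against 0.00308% higher and 0.00771% lower. Without TAK-418 library 2, 1 member was called, lower (0.0176%), against 0.00311% higher and 0.0327% lower. Without vehicle library 3, 168 members were called, 33 higher and 135 lower (0.563% and 2.3%). That last fit called 279 higher and 17829 lower over all regions (0.424% and 27.1%).

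In H3K27me3 and H3K4me3, 0 members were called between TAK-418 and vehicle in either direction (limma, background 0.00454% higher and 0 lower for H3K27me3, and 0 for H3K4me3). Of the members that passed the filter, 135 of 5861 (2.3%) had an unadjusted p under 0.05 for H3K27me3, against 1.94% of all regions, and 152 of 4951 (3.07%) for H3K4me3, against 4.46% of all regions. The TAK-418 libraries lay wholly above the vehicle libraries at 258 members for H3K27me3 (background 2.87%) and at 169 for H3K4me3 (background 6.94%), and wholly below them at 69 (background 0.596%) and 156 (background 1.72%). The median log2 difference was 0.04 for H3K27me3 and 0.00 for H3K4me3 over members, and 0.08 and 0.06 over all regions tested. Without TAK-418 library 1 the H3K27me3 median was -0.02 over members and -0.06 over all regions, and after median centring the member median was -0.03. The member with the smallest H3K27me3 p, of 2599 bp on chromosome 16 (5925600 to 5928199), had 2.54, 2.90 and 1.08 with TAK-418 and 1.00, 1.14 and 1.00 with vehicle, with an adjusted p of 1.0 by limma, and was the 1 member called when TAK-418 library 3, its low library, was left out (adjusted p = 0.0477).

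VPA vehicle and VPA TAK-418 were each set against the same control libraries. Since the rule read the calls in those controls, the values are a description of the members, and nothing is read from them. H3K9me3 was above all 3 controls in all 3 vehicle libraries at 5474 members, or 83.5% (background 57.6% of all regions), and in all 3 TAK-418 libraries at 4121 members, or 62.9% (background 47.5%). It was below all 3 controls at 0 members in both groups (background 0.191% with vehicle and 0.0675% with TAK-418). The limma test called 12 members higher with vehicle than in controls (background 1.2%) and 8 higher with TAK-418 than in controls (background 1.7%), and 0 lower in each (background 0.00275%). Single libraries decided these counts. Without TAK-418 library 1, which enters the shared estimate of the spread, 4733 members (72.2%) and 37.6% of all regions were called higher with vehicle. Without vehicle library 2 no member was, against 0.364% of all regions, and without TAK-418 library 3 no region was. Leaving out any other library gave 7 to 346 members (0.107% to 5.28%), against 1.81% to 7.78% of all regions. For TAK-418 against control the count was 0 without TAK-418 library 1 and 2058 (31.4%) without TAK-418 library 3, where 39.9% of all regions were called. Without any other library that moved it, the count was 5 to 538 (0.0763% to 8.21%), against 1.58% to 13.8% of all regions higher. The median log2 difference from control over members was 0.56 with vehicle and 0.50 with TAK-418, where all regions had 0.32 and 0.33. After each library's median had been subtracted, or after quantile normalization, 0 regions of the table were called in either comparison. For H3K9Ac, 158 members were called higher and 7 lower in vehicle than in control libraries (background 31.5% and 0.0654%), and after median centring 60 higher and 183 lower (1.1% and 3.35%), against 27.3% and 1.43% of all regions. Without vehicle library 2 no member was called in this comparison, against 0.0561% of all regions higher. Without vehicle library 1 there were 5, all higher (0.0915%, against 0.424%). Without control library 1, 76 were higher and 21 lower (1.38% and 0.38%, against 22.6% and 0.199%). Without control library 2, 4 were higher and 2 lower (0.0727% and 0.0363%, against 0.419% and 0.0127%). Without control library 3, 22 were higher and 11 lower (0.401% and 0.2%, against 8.86% and 0.0889%). Without vehicle library 3 there were 684, of which 679 (12.2%) were higher, against 52.3% of all regions. No member was called in H3K9Ac between TAK-418 and control libraries (background 0.00319% higher and 0 lower). No member was called for H3K27me3 (background 0.00153% higher in each comparison) or H3K4me3 (background 0 in both). For H3K4me3 between TAK-418 and control, however, 73 members were called without TAK-418 library 2. Of these, 68 were higher and 5 lower (1.42% and 0.105%, against 21.8% and 0.0778% of all regions). Without control library 2, 18 were called, 4 higher and 14 lower (0.0818% and 0.286%, against 7.37% and 0.16%).

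The level of H3K9me3 varied widely among members. Over the 6 VPA libraries the median level was 4.38, the middle 90% lay between 3.02 and 11.4, and the extremes were 2.14 and 167. A mean above 10 was found at 442 members and above 25 at 69. The order of members was similar between libraries, with Spearman's rho over members between 0.799 and 0.905 for pairs of VPA libraries, and rho between length and level was -0.214. Both are descriptions across regions of the same libraries. The top 66 members, the highest 1%, had a median length of 1199 bp, and 34 of them lay on chromosome 1 and 8 on X.

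The member with the highest H3K9me3 level was a block of 1199 bp on chromosome 14 (4944600 to 4945799), 18.2 kb from a region that lists LOC682914. Its H3K9me3 level was 210, 133 and 136 with TAK-418, 164, 207 and 150 with vehicle and 49.8, 108 and 110 in controls. Its TAK-418 and vehicle libraries overlapped, and control library 1 was the lowest. The other marks were also high there without an interval being called: H3K27me3 was 100, 55.0 and 46.0 with TAK-418, 50.8, 73.7 and 39.2 with vehicle and 48.4, 42.4 and 38.1 in controls. H3K9Ac was 13.2, 22.7 and 12.4 with TAK-418, 13.8, 16.3 and 7.88 with vehicle and 4.88, 10.1 and 7.64 in controls. The input signal was not used here, and its part in these levels was not tested. The second, of 999 bp, lay on the same chromosome (4886200 to 4887199), with H3K9me3 of 177, 84.1 and 91.2 with TAK-418 and 114, 156 and 105 with vehicle. A pair of neighbours on X (36769600 to 36770599 and 36771400 to 36771999), within 8.20 kb of a region that lists RGD1564033, and a member on chromosome 1 (56420000 to 56420799) completed the highest 5. None of the 5 differed between TAK-418 and vehicle by the limma test (log2 differences between -0.15 and -0.02, adjusted p = 1.0).

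The 3 longest members had a receptor or zinc finger gene as nearest listed gene, and had levels nearer the median. The longest, of 87799 bp on chromosome 1 (64956800 to 65044599), lay 35.6 kb from a region that lists the zinc finger gene Zfp945. It had H3K9me3 of 8.25, 4.25 and 4.55 with TAK-418, 4.70, 7.08 and 4.68 with vehicle and 2.78, 2.87 and 3.01 in controls. A member of 69799 bp on chromosome 8 (20147400 to 20217199) lay 2.20 kb from a region that lists the olfactory receptor gene Olr1162. It had 6.37, 3.55 and 3.48 with TAK-418, 4.14, 5.67 and 3.99 with vehicle and 2.28, 2.73 and 2.76 in controls. A member of 64199 bp on chromosome 1 (73689200 to 73753399) lay 0.801 kb from a region that lists the vomeronasal receptor gene Vom2r30. It had 5.42, 2.93 and 2.87 with TAK-418, 3.55, 4.77 and 3.29 with vehicle and 2.03, 2.38 and 2.35 in controls. In all 3 the TAK-418 and vehicle libraries overlapped, and all 3 were called in all 9 libraries.

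**Figure D4:**
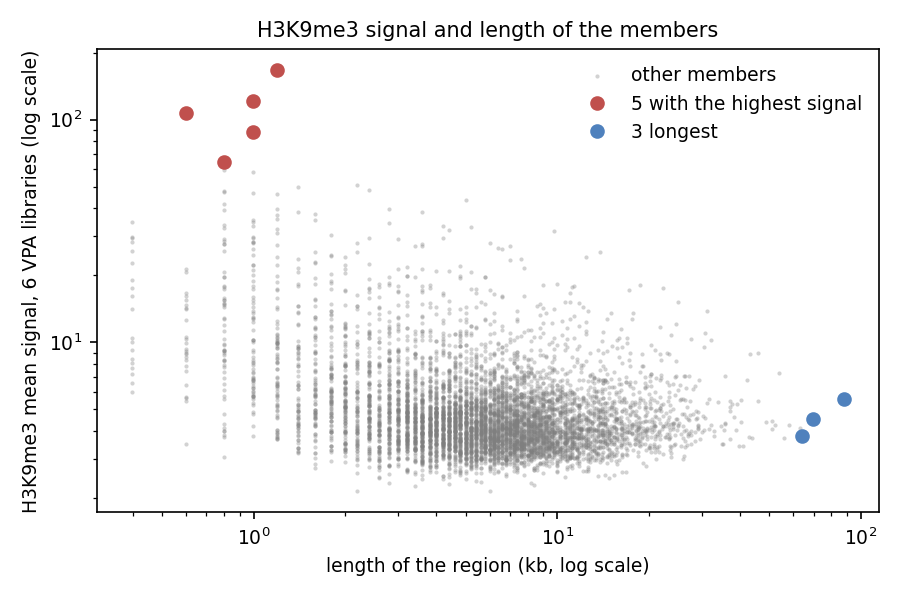
H3K9me3 mean signal over the 6 VPA libraries (y axis, log scale) against region length in kb (x axis, log scale) for the 6554 members. The 5 with the highest signal (red) are all under 2 kb, and the 3 longest (blue) lie near the median level of 4.38.

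The genes nearest to the members were named from the other regions of the table. The median distance to the nearest region that lists a gene was 84.9 kb for members and 98.2 kb for the other regions with no listed gene, and 12.0% and 12.7% were over 500 kb away. The nearest listed gene was an olfactory receptor, of the odorant receptor family expressed in the nose, for 287 members (4.38%), against 1.41% of the other regions with no gene. It was a vomeronasal receptor, of the pheromone receptor families, for 276 members (4.21%), against 0.966%, and a cytochrome P450, of the oxidases of drug and steroid metabolism, for 62 members (0.946%), against 0.244%. For zinc finger genes the shares were 1.51% and 1.51%, for cadherins and protocadherins 1.39% and 1.53%, and for synaptic adhesion genes 1.48% and 1.51%. Of the regions that listed a gene and met the same mark criteria, 13.0% listed an olfactory receptor, 6.79% a vomeronasal receptor and 1.89% a cytochrome P450. Over the VPA libraries the median H3K9me3 level was 4.31 beside olfactory receptors, 4.62 beside vomeronasal receptors, 5.82 beside cytochromes P450 and 3.60 beside synaptic adhesion genes. These shares are counts over neighbouring regions and were not tested. For 31.3% of members the nearest such region listed an unnamed gene model, against 25.5% of the other regions with no gene. A region that lists several genes can count in several of these classes.

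By distance to the nearest region that lists a gene, members within 50 kb had a median H3K9me3 level of 4.44 with TAK-418, 4.61 with vehicle and 2.77 in controls, and members over 500 kb away had 4.07 with TAK-418, 4.22 with vehicle and 2.69 in controls. Members between 50 and 200 kb away had 4.32, 4.42 and 2.73, and those between 200 and 500 kb 4.11, 4.21 and 2.64, in the same order of groups. In each class the vehicle level was above the TAK-418 level and both were above the control level. The classes share the same libraries, so they are not separate results. The order of TAK-418 and vehicle over all members depended on single libraries, as given above, and the rule read the control libraries.

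Chromosomes differed in how many of their regions were members. Chromosome 7 had 12.9 members per 100 regions, followed by chromosomes 1 with 11.0, 2 with 10.9 and 14 with 10.7, and chromosome 10 had the fewest with 4.15. Per Mb, chromosomes 7 and 12 had 3.60 each, and X had 1.04. The median level over the VPA libraries was lowest on X, at 3.57, and lay between 3.93 and 4.89 on the other chromosomes.

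**Figure D5:**
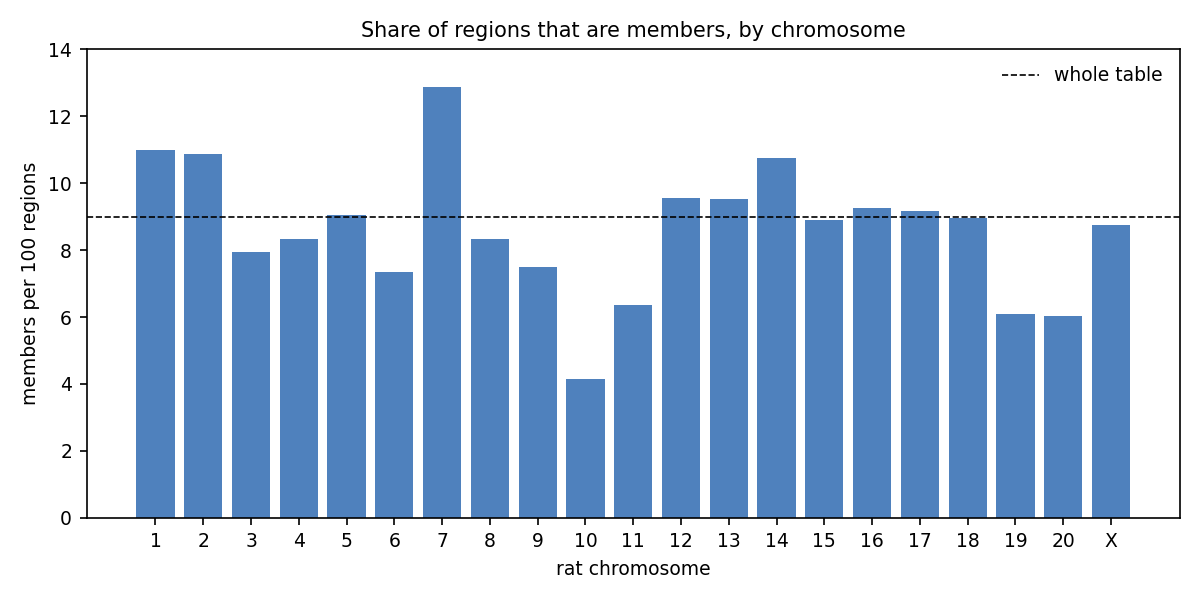
Members per 100 regions (y axis) on each rat chromosome (x axis); the dashed line is the whole table, 9.0. Chromosome 7 is highest at 12.9 and chromosome 10 lowest at 4.15.

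Part of the members lay in groups of neighbours, and other regions were not grouped for comparison. With members joined at gaps of up to 100 kb, they formed 3431 chains, of which 2257 were single members, and 1942 members (29.6%) lay in chains of 5 or more. The gap sets these values: at 50 kb 1326 members (20.2%) lay in such chains and the largest held 24, and at 20 kb 687 (10.5%) did and the largest held 15. At 100 kb the largest held 64 members over 1.63 Mb of chromosome 2 (212922600 to 214552999), covered 49.3% of that span, and held regions that list Pglyrp3b, of the peptidoglycan recognition proteins, and S100vp. Its median H3K9me3 level was 6.31, 3.44 and 3.41 with TAK-418, 4.25, 5.52 and 3.66 with vehicle and 2.25, 2.60 and 2.73 in controls, close to the medians of all members. The next held 46 members on chromosome 7 (19429800 to 20616199), around a region that lists Vom2r56, with 10.5, 5.20 and 5.71 with TAK-418, 7.04, 9.82 and 6.51 with vehicle and 3.03, 4.22 and 4.08 in controls. This chain also held the member whose H3K9Ac was called lower with TAK-418.

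A chain of 34 members on chromosome 1 (187351200 to 187932199) was unlike these. It held no region that lists a gene, its members had a median length of 1099 bp, and its levels were 29.2, 18.9 and 19.9 with TAK-418, 19.0, 23.9 and 20.4 with vehicle and 13.7, 11.7 and 11.5 in controls. The 33 members of a chain on chromosome 13 (38608200 to 39355999) also had no region that lists a gene among them, and held the member whose H3K9Ac was called higher with TAK-418. A chain of 32 members on chromosome 5 (81323800 to 82146199) surrounded regions that list Mup5, of the major urinary proteins made in liver, and Zfp37, a zinc finger gene. Its levels were 10.6, 5.94 and 5.78 with TAK-418, 8.46, 9.91 and 7.02 with vehicle and 2.99, 5.04 and 5.38 in controls. In all of these chains the TAK-418 and vehicle libraries overlapped.

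The mouse table gave 4782 of 60110 regions by the same rule, with a median length of 7799 bp. Their H3K9me3 median was 2.95 ± 1.32 in mice exposed to poly I:C before birth and given TAK-418, 2.31 ± 1.18 with poly I:C and vehicle, and 3.96 ± 2.17 in control mice (SD, n = 3 each). The rule read the calls in the mouse controls, so their level and calls are a description only. The share of members called per library ran from 1.57% to 91.7% with TAK-418 and from 1.42% to 88.6% with vehicle. In controls it ran from 43.3% to 99.6%. The mean share of members was 59.6%, 31.0% and 77.8% in the same order of groups, against 20.6%, 14.1% and 25.0% of all mouse regions. The rat libraries of VPA-exposed animals had a narrower range than either poly I:C group, from 82.4% to 96.6%. The rat controls ran from 51.7% to 95.1%.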

How the data were processed

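The deposited values, per the file headers, were a mean signal, a highest signal and a called interval for each merged region and library, and the authors' region table also gave genes, promoters and CpG islands. Reads were aligned with BWA 0.7.12 to rn5, per the submitters' processing notes. For the interval caller and any scaling, the sources used here give no name. Coordinates are those of the table, and all region starts were multiples of 200 bp.

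The test was limma 3.58.1 in R 4.3.3, with the trend and robust options, on the log2 of the mean signal plus 1, for regions with a mean signal of at least 1 over the libraries fitted. P-values were adjusted over all regions tested. TAK-418 and vehicle were compared on the 6 VPA libraries of a mark, and comparisons with control used 9. The test was checked on simulated data. Members and lists were chosen with earlier results of these data known. Named regions were the 5 with the highest H3K9me3 over the VPA libraries, the 3 longest, for each mark those called or with the smallest p, and the 3 called for another mark in most VPA libraries. Chain gaps were chosen after the data had been seen.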

Additional observations from a re-analysis of the deposited data

How the results depend on the processing

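Read depth is unknown and the scale between libraries is not stated, so differences in level cannot be separated from differences in scale, and 3 libraries a group limit what can be called. Counts below are of regions called, all regions unless members are named. Where a count moved, the cause was not tested.

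TAK-418 against vehicle, H3K9me3: 40 regions (25 higher, 15 lower). Median centring, quantile normalization and an interval in at least 2 of 6 libraries each gave 0, the 9-library fit and the highest signal 2 each, pseudocount 4 gave 61. Members stayed at 0 in these. H3K27me3: 3 regions, 0 members. Both rescalings, pseudocount 0.1, the interval filter, 9 libraries and the highest signal gave 0, pseudocount 4 gave 16, and no filter 23 with 2 members. H3K4me3: 0 regions. The interval filter gave 51 and the highest signal 23 with 2 members. H3K9Ac: 37 regions (5 higher, 32 lower), 3 members. Median centring gave 1144 (115 higher, 1029 lower) with 22 members, quantile normalization and no filter 0 with 0 members, 9 libraries 13 with 0 members, the highest signal 367 with 8 members, pseudocount 4 gave 5 members and the interval filter 0 members.

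Same-numbered TAK-418 and vehicle libraries did not all deviate together (correlations of numbers 1, 2 and 3 were -0.144, -0.3 and 0.0842 for H3K9me3, -0.109, -0.383 and 0.311 for H3K27me3, -0.0829, 0.0204 and 0.0592 for H3K4me3, and -0.00669, 0.301 and 0.355 for H3K9Ac), so the numbers were not taken as pairs. With a replicate block, TAK-418 against vehicle gave 120 regions for H3K9me3, 78 with 3 members for H3K27me3, 1 for H3K4me3 and 7137 with 57 members for H3K9Ac. With the replicate block, vehicle against control gave 2978 for H3K9me3 and 54 for H3K27me3, and TAK-418 against control 5423, 42 and, for H3K9Ac, 4.

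Against control, median centring and quantile normalization gave 0 for H3K9me3 with vehicle (871 as deposited) and with TAK-418 (1237). Median centring gave 0 for H3K27me3 with vehicle and both gave 0 with TAK-418 (1 each as deposited). Quantile normalization gave 0 for H3K9Ac with vehicle (19792), and both gave 0 with TAK-418 (2).

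Leaving out 1 library, TAK-418 against vehicle ranged from 26 to 360 regions for H3K9me3 (members 0 to 15), 3 to 16 for H3K27me3 (members 0 to 1), 0 to 0 for H3K4me3 and 4 to 18108 for H3K9Ac (members 0 to 168). Vehicle against control ranged from 0 to 27292 for H3K9me3, 0 to 27 for H3K27me3, 0 to 1 for H3K4me3 and 36 to 33214 for H3K9Ac. TAK-418 against control ranged from 1 to 28956, 0 to 18, 0 to 12074 and 3 to 45 in the same order of marks. The ratio of summed H3K9me3 signal ranged from 0.862 to 1.09, and was below 1 without TAK-418 library 1 (0.862), vehicle library 1 (0.977) or vehicle library 3 (0.952).

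Asking for all 3 controls left 2703 members, and for at least 1 control 11540, with a median level of 4.92 and 3.89 over the VPA libraries and a median length of 7599 and 4799 bp.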
